A study of Mus musculus with 14 samples.

Results

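The insulin-like growth factor (IGF) genes described here are the growth factors Igf1 and Igf2, the receptors Igf1r and Igf2r, and the binding protein genes Igfbp2 to Igfbp7. These 10 genes were chosen by name from the 35275 genes of the expression table. The choice was made with the results known, because Igfbp5 showed the largest rise of any gene with active β-catenin, so the values for β-catenin cells relative to FAK KO cells are given as a description without a test. Expression was measured by RNA sequencing in 14 samples of 5 mouse ovarian tumor cell lines. Each was grown for 5 days in tumorsphere culture, which is serum-free medium on non-adherent plates where cells can form clusters. KMF cells were recovered from the ascites of C57Bl6 mice bearing ID8 ovarian tumor cells (n = 3). FAK KO cells are clone KT13 of KMF, a single clone in which the gene for focal adhesion kinase (FAK, Ptk2) was disrupted by CRISPR (n = 3). FAK-WT cells are KT13 with lentiviral GFP-FAK (n = 3), and FAK-R454 cells are KT13 with lentiviral GFP-FAK carrying the R454 mutation that removes kinase activity (n = 2). β-catenin ΔGSK cells are KT13 with a retroviral β-catenin that lacks the sites by which GSK3β marks it for destruction, together with GFP (n = 3). All lines other than KMF therefore carry the FAK knockout of 1 clone, and a difference between KMF and FAK KO cells that comes from picking a clone cannot be told apart from one that comes from the loss of FAK. The paper reports that KMF cells needed FAK activity to cluster into tumorspheres, and that β-catenin ΔGSK also supported clustering. The lines therefore differed in clustering, and its part in the levels below was not tested.

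IGF1 and IGF2 are secreted growth factors that activate the receptor tyrosine kinase encoded by Igf1r, which signals through insulin receptor substrates to PI3K and AKT. The receptor encoded by Igf2r has no kinase domain and takes up IGF2 for breakdown in lysosomes. The binding proteins hold IGFs outside the cell, where they can block or prolong their action, and proteases release the growth factor again. Ovarian tumor cells and the stroma around them are known sources of several of these proteins.

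The levels are FPKM, the fragments per kilobase of gene scaled to the size of each library as the authors calculated them, so that levels can be compared between genes. Each library held between 25390558 and 35289859 fragments on genes. Ptk2 ran from 17.6 to 20.5 FPKM in the FAK KO samples, 23.9 to 24.8 in KMF, 42.3 to 45.4 in FAK-WT and 59.2 to 65.5 in FAK-R454, and fragments over the whole gene do not separate edited from added copies. Axin2, a standard target of β-catenin, was 110 ± 6.69 FPKM in β-catenin ΔGSK cells and 0.822 ± 0.0146 FPKM in FAK KO cells (SD, n = 3 each). Of 10 ovarian surface epithelium markers 6 exceeded a mean of 1 FPKM in every line (Krt8, Krt18, Krt19, Wt1, Upk3b and Msln), while Epcam, Cdh1, Krt7 and Pax8 did not. Of 11 leukocyte markers only Cd68 did, and Ptprc was listed at 0 in every sample but 1. Because the samples are bulk RNA, fewer cells expressing a gene and less RNA per cell cannot be told apart in any value below.

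The 10 genes covered a wide range of abundance. Igfbp6 was the most abundant in the 4 lines without added β-catenin and ranked between 147th and 293rd among all genes in those lines. Igfbp5 was the most abundant in β-catenin ΔGSK cells, where it ranked 119th, and it ranked 12287th or lower in the other lines. Igfbp7 followed Igfbp6 in the 4 lines, and Igf2r and Igf1r were at intermediate levels throughout. Igf1 and Igf2 stayed below a mean of 1 FPKM in every line. When the 5 lines were ordered by their mean for each gene, 16 of the 40 neighbouring pairs had overlapping samples.

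**Figure D1:**
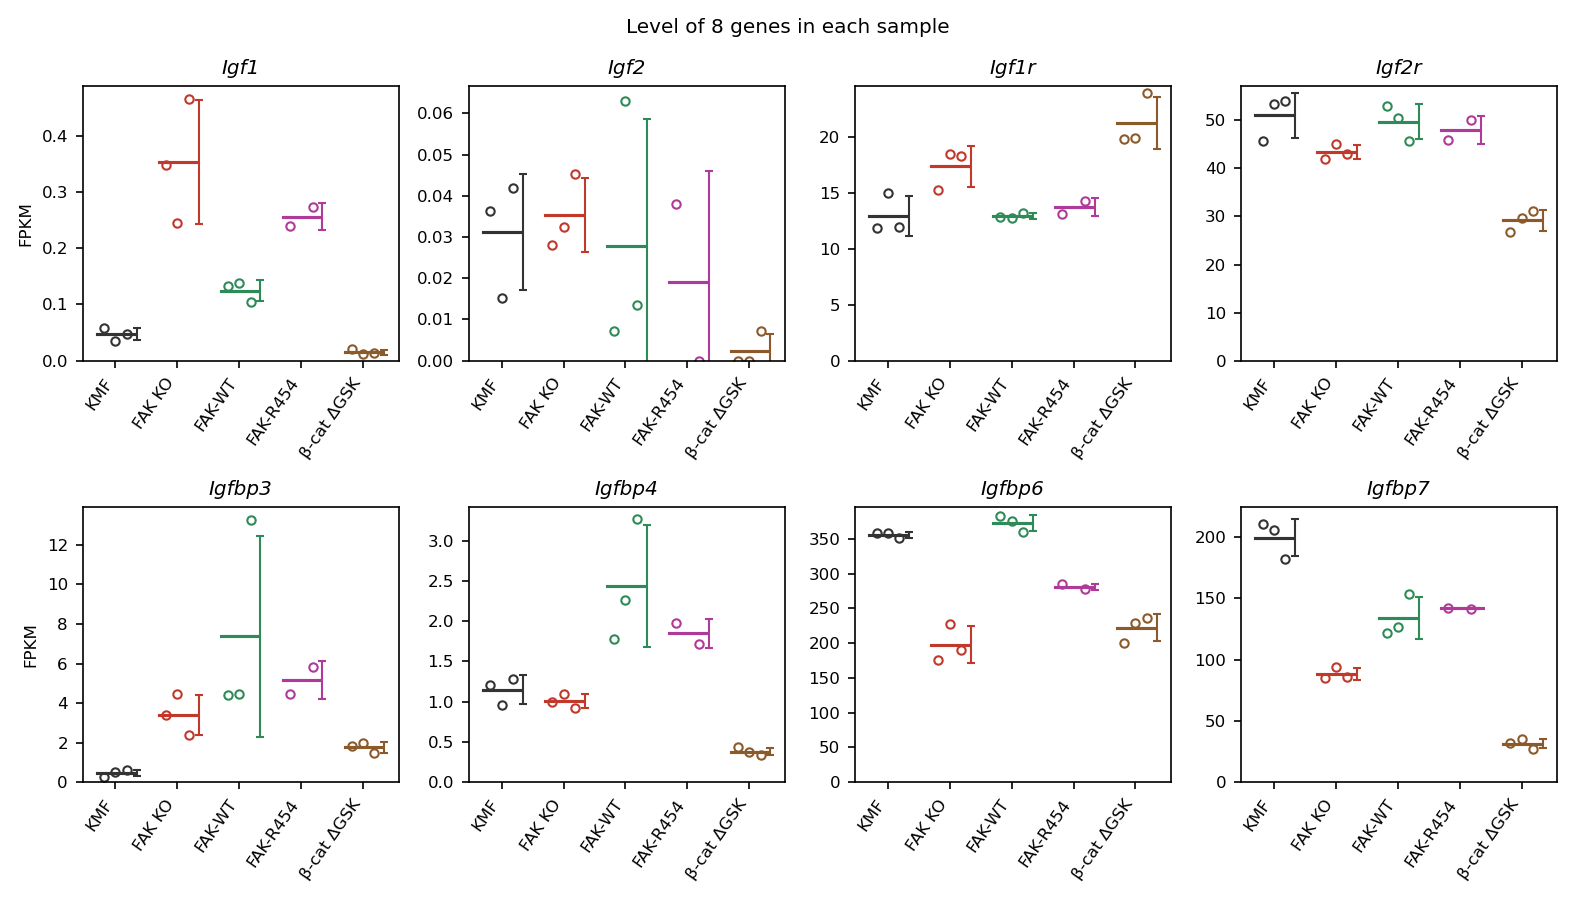
FPKM (vertical axes, linear, from 0) of 8 genes in each sample of the 5 lines, with the mean as a horizontal bar and the SD as the bracket at its right, cut at 0 for Igf2. Igfbp6 lies between 176 and 383 FPKM in all samples, and Igf1 and Igf2 stay below 0.5 FPKM.

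The ligand genes were close to silent in all 5 lines. Igf1 was 0.349, 0.245 and 0.466 in FAK KO, 0.240 and 0.273 in FAK-R454, 0.133, 0.137 and 0.104 in FAK-WT, 0.0586, 0.0356 and 0.0482 in KMF, and 0.0200, 0.0112 and 0.0145 FPKM in β-catenin ΔGSK samples. FAK KO and FAK-R454 samples overlapped, and the other neighbours in this order did not. These levels rest on between 2 and 92 fragments per library. Igf2 was below that: it was covered by 0 to 8 fragments per library, was listed at 0 in 1 FAK-R454 sample and 2 β-catenin ΔGSK samples, and all neighbouring lines in its order overlapped. A count of 0 allows 3 fragments, or up to 0.0201 FPKM in that FAK-R454 sample and 0.0224 and 0.0250 FPKM in the β-catenin ΔGSK samples. FAK KO samples, at 4 to 6 fragments or 0.0281 to 0.0454 FPKM, were above the β-catenin ΔGSK samples, at 0 or 1 fragment. In the 5 fitted comparisons without β-catenin ΔGSK cells the adjusted p of Igf2 ran from 0.578 to 0.861 in limma, and no difference was detectable at this depth.

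Both receptors were expressed in all 14 samples and moved little. Igf1r was 15.2, 18.5 and 18.3 in FAK KO, 11.8, 15.0 and 11.9 in KMF, 12.9, 12.7 and 13.2 in FAK-WT, 13.1 and 14.3 in FAK-R454, and 19.8, 19.9 and 23.9 FPKM in β-catenin ΔGSK samples. Every FAK KO sample was above every sample of KMF, FAK-WT and FAK-R454 cells, and these last lines could not be ordered because their neighbours overlapped. Igf2r was 42.0, 45.0 and 43.1 in FAK KO, 45.7, 53.3 and 54.1 in KMF, 52.9, 50.6 and 45.7 in FAK-WT, 45.96 and 50.002 in FAK-R454, and 26.8, 29.6 and 31.1 FPKM in β-catenin ΔGSK samples. The β-catenin ΔGSK samples were the lowest, the FAK KO samples came next, and KMF, FAK-WT and FAK-R454 samples overlapped. The antisense transcript Airn overlaps 28354 bases of Igf2r, the library kit is not stated to keep strand, and Airn ran from 11.3 ± 0.637 FPKM in KMF cells to 5.47 ± 0.811 FPKM with added β-catenin (SD, n = 3 each), so that fragments of the pair in that overlap cannot be told apart.

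Igfbp5 and Igfbp2 lie tail to tail on chromosome 1, and the 2 gene bodies are 5457 bases apart. Igfbp2 (ENSMUSG00000039323) runs from 72824503 to 72852474 on the plus strand and Igfbp5 (ENSMUSG00000026185) from 72857932 to 72874884 on the minus strand (GRCm38). Igfbp5 encodes a matrix-associated binding protein, and Igfbp2 encodes a secreted binding protein that is often abundant in fetal tissue and tumors. Bases upstream of both genes, from their RefSeq promoter windows (GRCm38.p6), are shown because both genes had their highest levels in β-catenin ΔGSK cells, the first at chr1:72824230-72824479 on the plus strand and the second at chr1:72874885-72875115 on the minus strand, with GGGCGG, the letters of a GC box, in capitals. The Igfbp2 stretch of 250 bases ends at its RefSeq start, and the Igfbp5 stretch of 231 bases ends at the gene body of the deposited table, 19 bases before its RefSeq start. RefSeq gives Igfbp2 another window, at chr1:72825137-72825436, which is not shown and holds none of the letters searched.
Igfbp2: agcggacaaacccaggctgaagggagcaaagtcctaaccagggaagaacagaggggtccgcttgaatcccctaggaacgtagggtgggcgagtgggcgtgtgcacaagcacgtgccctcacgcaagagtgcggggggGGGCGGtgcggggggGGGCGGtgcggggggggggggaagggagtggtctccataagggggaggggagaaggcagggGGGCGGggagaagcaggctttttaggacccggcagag
Igfbp5: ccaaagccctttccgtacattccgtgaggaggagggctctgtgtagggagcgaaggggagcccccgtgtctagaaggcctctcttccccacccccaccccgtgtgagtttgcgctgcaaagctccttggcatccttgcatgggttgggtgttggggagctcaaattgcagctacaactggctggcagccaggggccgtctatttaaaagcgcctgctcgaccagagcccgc
On both strands, neither sequence holds CTTTGAT or CTTTGAA, letters that TCF/LEF factors, the DNA-binding partners of β-catenin, can bind. Among all 32851 RefSeq promoter windows of 300 bases, 3.73% hold the first, 5.14% the second and 8.65% at least 1 of them. All 10 genes matched, with 14 windows, and 1 of these held such a match, that of Igf1. GGGCGG is in 35.7% of all windows. A match is a description of letters, and its absence says only that the letters are not in this window.

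Igfbp5 was 459, 460.3 and 461 in β-catenin ΔGSK, 0.508, 0.614 and 0.769 in FAK-WT, 0.115, 0.209 and 0.269 in KMF, 0.0779 and 0.0736 in FAK-R454, and 0.0885, 0.0319 and 0.0476 FPKM in FAK KO samples. The lines did not overlap, except for FAK-R454 and FAK KO cells at the bottom of the order. The fragments counted on Igfbp5 were 78272, 70196 and 81462 in β-catenin ΔGSK cells and 16, 5 and 8 in FAK KO cells. The ratio of the line means, 8217, therefore rests on a denominator of a few fragments per library, and the log2 fold change of 11.54 depends on the constant of 0.1 FPKM added before taking logarithms: it was 8.77 with 1 FPKM and 12.86 with 0.01 FPKM.

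Igfbp2 was 158, 168 and 194 in β-catenin ΔGSK, 9.48, 13.7 and 11.5 in FAK KO, 4.51, 3.96 and 3.56 in FAK-WT, 2.64 and 3.96 in FAK-R454, and 1.00, 0.658 and 0.694 FPKM in KMF samples. FAK-WT and FAK-R454 samples overlapped, and all other neighbours in the order were apart. The mean of β-catenin ΔGSK cells was 15.0 times that of FAK KO cells and 221 times that of KMF cells. Igfbp5 was at most 0.0885 FPKM in any FAK KO sample, and Igfbp2 was at 9.48 FPKM or more in all of them. The other expressed genes within 200 kb of this pair were Rpl37a, which went from 766 ± 72.8 FPKM without to 1158 ± 102 FPKM with added β-catenin, and Smarcal1, which went from 9.31 ± 0.466 FPKM to 7.07 ± 0.525 FPKM (SD, n = 3 each). Rpl37a encodes a ribosomal protein with many near-identical pseudogenes, and its value is uncertain for that reason.

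**Figure D2:**
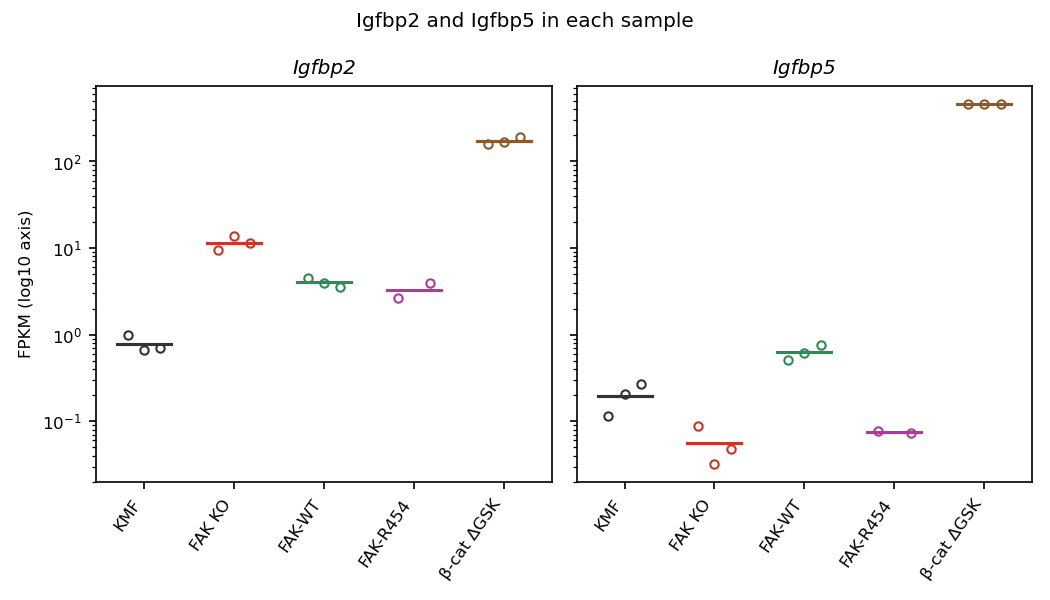
FPKM (vertical axis, log10 scale) of Igfbp2 and Igfbp5 in each sample of the 5 lines, with the mean of each line as a horizontal bar. Both are highest in β-catenin ΔGSK cells, at 158 FPKM or more, and lowest in different lines: KMF for Igfbp2 and FAK KO for Igfbp5.

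Between β-catenin ΔGSK and FAK KO cells, 8 of the 10 genes had a mean above 1 FPKM in at least 1 of the lines. Igfbp5 and Igfbp4 did so only through the line in which each was higher. Counted by size alone, with a log2 change of at least 1 and a mean above 1 FPKM in the higher line, 2 were higher (Igfbp5 and Igfbp2) and 2 lower (Igfbp7 and Igfbp4). Among all 11915 genes past the same filter 5.17% were higher and 7.01% lower by this rule, and nothing is read from the counts because the genes were chosen in this comparison. Igfbp7, which encodes a binding protein with low affinity for IGFs, was 32.0, 35.1 and 27.3 FPKM with β-catenin ΔGSK and 85.4, 93.7 and 86.0 FPKM in FAK KO cells, a log2 fold change of -1.49. Igfbp4, whose product mostly inhibits IGF action, was 0.432, 0.370 and 0.337 FPKM with β-catenin ΔGSK and 0.997, 1.10 and 0.923 FPKM in FAK KO cells, a log2 fold change of -1.21. The FAK KO mean of Igfbp4, 1.01 FPKM, lay just above the filter, and without FAK KO replicate 2 the gene did not pass it. Igfbp3, which carries most circulating IGF, was 1.82, 1.98 and 1.47 FPKM against 3.40, 4.44 and 2.39 FPKM, a log2 fold change of -0.88. None of these 3 genes had overlapping samples between the lines, and Igfbp6 was the only one of the 8 whose samples overlapped, where 64.2% of all genes were apart. Igfbp6 was 200.1, 229.8 and 237 FPKM against 176, 228 and 190.1 FPKM. Igf1r and Igf2r had log2 fold changes of 0.29 and -0.57.

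The composition of binding protein mRNA changed with these levels. The summed FPKM of Igfbp2 to Igfbp7 was 558 ± 19.1 for KMF, 302 ± 34.2 for FAK KO, 521 ± 11.6 for FAK-WT (SD, n = 3 each), 434 ± 2.94 in FAK-R454 (SD, n = 2) and 889 ± 34.7 in β-catenin ΔGSK cells (SD, n = 3). Igfbp6 made up between 63.8% and 71.6% of the sum as a mean of each line without added β-catenin, and Igfbp7 between 25.7% and 35.7%. In β-catenin ΔGSK cells Igfbp5 made up 51.8% ± 1.94, Igfbp6 25.0% ± 1.27, Igfbp2 19.5% ± 1.39 and Igfbp7 3.55% ± 0.506 (SD, n = 3). The same FPKM sum in FAK KO cells held 0.0193% ± 0.0117 Igfbp5 and 3.81% ± 0.315 Igfbp2 (SD, n = 3).

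**Figure D3:**
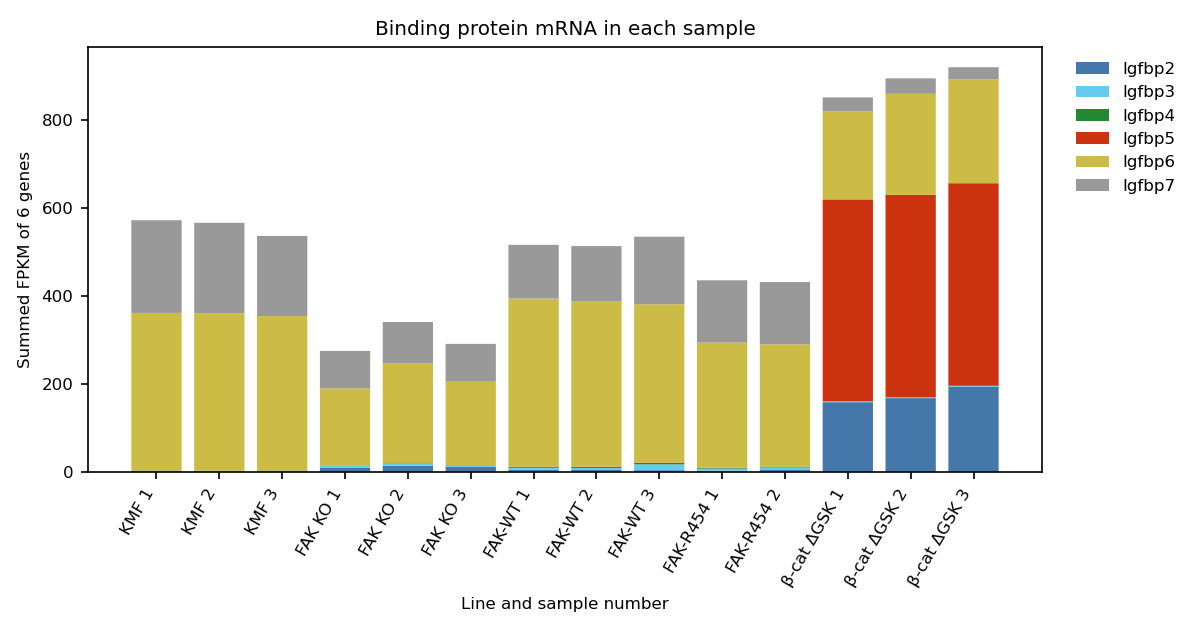
Summed FPKM of Igfbp2 to Igfbp7 (vertical axis, linear) in each of the 14 samples, with the share of each gene as a coloured segment. Igfbp6 and Igfbp7 fill most of the bar in the 4 lines without added β-catenin, and Igfbp5 and Igfbp2 fill most of it in β-catenin ΔGSK cells.

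Comparing FAK-WT to FAK KO asks what differs with re-expressed FAK, and comparing FAK-R454 to FAK KO asks the same for a kinase-inactive FAK. Both share the FAK KO samples. The lines with added FAK or β-catenin also went through viral transduction, drug selection and enrichment by flow cytometry. No KT13 line with an empty vector is among the samples. A difference from FAK KO cells due to that handling cannot be told apart from one due to the added protein. Genes were tested where their mean was above 1 FPKM in at least 1 of the lines compared. Calls required an adjusted p under 0.05 from limma, a linear model fitted across all genes tested, a log2 change of at least 1 in size and a mean above 1 FPKM in the higher line. Of 7 genes that passed the filter between FAK-WT and FAK KO cells, Igfbp4 was called higher and Igfbp2 lower, where 2.91% of all 11841 genes tested were called higher and 1.71% lower. At any fold, 3 of the 7 were higher (Igfbp4, Igfbp6 and Igfbp7) and 2 lower (Igf1r and Igfbp2) at an adjusted p under 0.05, where 15.6% and 25.2% of all genes were. In FAK-R454 over FAK KO cells 1 of 7 was called (Igfbp2, lower), where 0.812% of all 11818 genes were called lower and 1.93% higher. Igfbp4, Igfbp6 and Igfbp7 were higher and Igf1r and Igfbp2 lower at any fold, where 9.78% and 9.89% of all genes were. Of the genes passing at any fold with re-expressed wild-type FAK, 38.3% were higher, and 53.3% after median-of-ratios scaling, a rescaling that kept the direction of all 5 genes. That split went from 43.2% to 58.2% between FAK-WT and FAK-R454 cells, from 40.8% to 53.8% with added β-catenin, from 49.7% to 55.5% in FAK-R454 over FAK KO, from 44.6% to 51.6% in KMF over FAK KO and from 43.6% to 48.3% in FAK-WT over KMF cells.

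Igfbp2 fell with either form of FAK. The log2 fold change on the FPKM + 0.1 scale was -1.49 in FAK-WT (standard error, SE, 0.14, limma adjusted p = 2.24e-04) and -1.79 in FAK-R454 cells (SE 0.19, limma adjusted p = 7.50e-04). All samples with re-expressed FAK were below all FAK KO samples, and between FAK-WT and FAK-R454 cells the difference was 0.29 (SE 0.19, limma adjusted p = 0.364). KMF cells, which never lost FAK, were lower still, at a log2 fold change of -3.73 against FAK KO (SE 0.18, limma adjusted p = 1.50e-06). FAK-WT cells remained 5.12 times above KMF cells (log2 fold change 2.23, limma adjusted p = 1.12e-04). With a KMF mean of 0.784 FPKM, Igfbp2 passed the filter in both comparisons with KMF cells only through the other line, where it was high. It was called in both without the filter too (limma adjusted p = 3.28e-05 over FAK KO and 4.13e-04 for FAK-WT over KMF cells).

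Igfbp4 rose in FAK-WT cells to 1.78, 2.27 and 3.27 FPKM, and it was 1.97 and 1.72 FPKM in FAK-R454 and 1.21, 0.954 and 1.29 FPKM in KMF cells. Both lines with re-expressed FAK were above all FAK KO and KMF samples. The log2 fold change was 1.16 in FAK-WT over FAK KO cells (SE 0.21, limma adjusted p = 0.00434) and 0.82 in FAK-R454 over FAK KO cells (SE 0.17, limma adjusted p = 0.0137). Without FAK-WT replicate 3, the highest sample, the first value was 0.93 and the call was lost. The second was 0.72 without FAK-R454 replicate 1 and 0.91 without replicate 2, given by size alone because 1 sample then remains in that line. FAK-WT and FAK-R454 samples overlapped, with a log2 difference of 0.34 (SE 0.25, limma adjusted p = 0.417). KMF and FAK KO cells overlapped too (0.17, SE 0.17, limma adjusted p = 0.416).

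**Figure D4:**
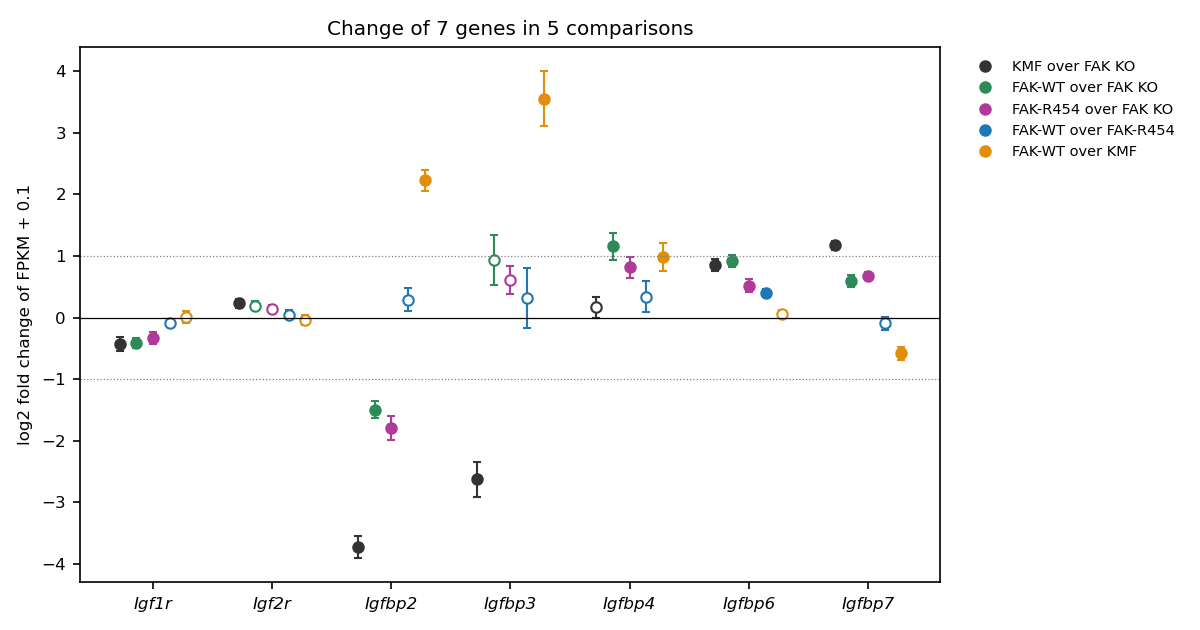
Log2 fold change of FPKM + 0.1 with its standard error (vertical axis) of the 7 genes that passed the filter in 5 comparisons, with filled points for an adjusted p under 0.05 from limma and dotted lines at the fold threshold. Igfbp2 is below 0 in all comparisons over FAK KO cells, and Igfbp3 spans -2.63 to 3.56.

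Igfbp6 and Igfbp7, the abundant pair, were both higher in the lines with FAK than in FAK KO cells, and of these differences that of Igfbp7 in KMF cells alone reached the fold threshold. Igfbp6 encodes a binding protein that prefers IGF2. Its levels were 383, 376 and 360.2 in FAK-WT, 359, 358 and 351 in KMF, 285 and 278 in FAK-R454 and 176, 228 and 190.1 FPKM in FAK KO samples. Each of these lines was apart from its neighbours. The log2 fold change over FAK KO cells was 0.92 in FAK-WT (SE 0.10, limma adjusted p = 3.39e-04), 0.86 in KMF (SE 0.10, limma adjusted p = 1.45e-04) and 0.52 in FAK-R454 cells (SE 0.10, limma adjusted p = 0.0118). It was the only one of the 7 genes that passed an adjusted p of 0.05 between FAK-WT and FAK-R454 cells, at 0.41 (SE 0.05, limma adjusted p = 0.0157). Of all 11782 genes tested in this comparison 3.38% were higher and 4.44% lower, which is 398 and 523 genes. These counts were 157 and 177 without FAK-WT replicate 1, 64 and 93 without replicate 2, and 1505 and 1807 without replicate 3. None of the 7 was called there, against 0.696% of all genes called higher and 0.747% lower, limma-voom on fragments called none either, and besides Igfbp6 none had an unadjusted p under 0.05.

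In FAK-WT over FAK KO cells the genes around Igfbp6 were higher too. Igfbp6 lies on chromosome 15 (102144362 to 102149511, plus strand, GRCm38), the chromosome that also carries Ptk2. The paper reports copy number gains in regions of this chromosome in KMF cells, with the gene for FAK among those gained. It also cites extra copies of the chromosome in the tumor cells from which KMF came. Whether copies of the Igfbp6 region differ between the lines was not tested. The median log2 fold change of FAK-WT over FAK KO cells was 0.30 for the 479 tested genes of chromosome 15 and -0.09 for those of the other chromosomes. All 13 other expressed genes within 200 kb of Igfbp6 had positive values there, between 0.33 and 0.94. All 13 passed an adjusted p of 0.05 from limma without reaching the fold threshold, where 15.6% of all genes were higher. Among them Krt8 and Krt18, which encode keratins of simple epithelia, rose by 0.84 and 0.79, and Rarg, a retinoic acid receptor gene, by 0.94. After each chromosome was centred on its median in each sample, Igfbp6 was 0.62 higher in FAK-WT cells than without FAK (limma adjusted p = 0.00220) and 0.26 higher than in FAK-R454 cells (limma adjusted p = 0.0618). Leaving out FAK-WT replicate 1 or 2 also raised the adjusted p of the second difference above 0.05 in limma. Leaving out either FAK-R454 sample leaves 1 in that line, so only the size is read there. All these values were between 0.39 and 0.42. For FAK-R454 over FAK KO cells the Igfbp6 value was 0.50 without FAK-R454 replicate 1 and 0.53 without replicate 2, again read by size alone. All 13 neighbours had positive values with kinase-inactive FAK too, relative to the knockout. Their median was 0.25 beside 0.52 for Igfbp6, and 8 passed an adjusted p of 0.05 from limma, where 9.78% of all genes were higher. Between FAK-WT and FAK-R454 cells all 13 were again positive, with a median of 0.24 beside 0.41 for Igfbp6. Of these 4 passed, where 3.38% of all genes were higher. In the remaining comparisons not all neighbours were above 0. For KMF over FAK KO cells 10 of the 13 were above 0, with a median of 0.23 beside 0.86 for Igfbp6. Of the 13, 7 passed as higher, where 23.1% of all genes were. In FAK-WT over KMF cells 12 were above 0, with a median of 0.25 beside 0.07 for Igfbp6. Again 7 passed as higher, where 18.2% of all genes were. With added β-catenin 3 of the 13 were above 0 with a median of -0.06. The part of the chromosome in the Igfbp6 result was not tested.

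**Figure D5:**
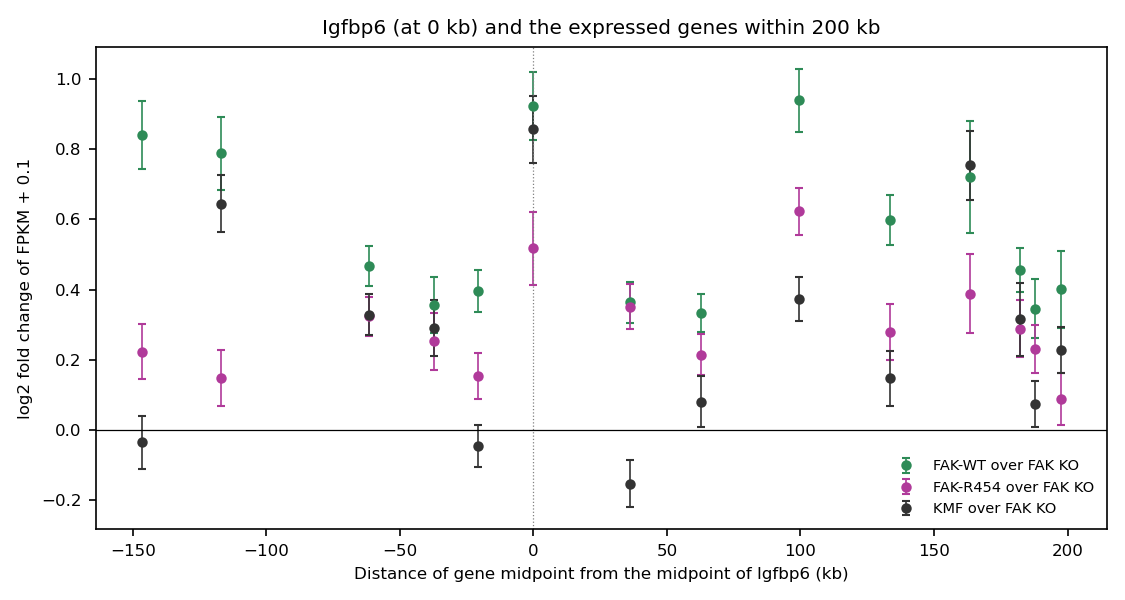
Log2 fold change of FPKM + 0.1 with its standard error (vertical axis) of Igfbp6 and the 13 other expressed genes within 200 kb, against the distance of their midpoints (horizontal axis, kb), in 3 comparisons. All FAK-WT over FAK KO values are above 0.3, and 3 of the 13 neighbours are below 0 in KMF over FAK KO cells.

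Igfbp7 was 211, 206 and 182 FPKM in KMF, 122, 126 and 154 FPKM in FAK-WT and 142 and 142 FPKM in FAK-R454 cells, all above every FAK KO sample. The log2 fold change over FAK KO cells was 1.17 in KMF (SE 0.08, limma adjusted p = 6.58e-06), 0.59 in FAK-WT (SE 0.09, limma adjusted p = 0.00217) and 0.68 in FAK-R454 cells (SE 0.07, limma adjusted p = 4.53e-04). FAK-WT and FAK-R454 cells overlapped (-0.09, SE 0.10, limma adjusted p = 0.613), though without FAK-WT replicate 3 the difference was -0.19 (limma adjusted p = 0.00645), and FAK-WT cells stayed below KMF cells by a log2 fold change of -0.58 (SE 0.10, limma adjusted p = 0.00389). The 3 other expressed genes within 200 kb of Igfbp7 had values between -0.28 and -0.08 in FAK-WT over FAK KO cells, and 1 of them, Polr2b on the opposite strand, overlaps 85 bases of Igfbp7.

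Igfbp3 separated KMF cells from the lines derived from KT13. It was 0.284, 0.518 and 0.609 in KMF, 3.40, 4.44 and 2.39 in FAK KO, 4.42, 4.46 and 13.2 in FAK-WT and 4.48 and 5.83 FPKM in FAK-R454 samples. Every KMF sample was below every other sample of the series. The log2 fold change of KMF over FAK KO cells was -2.63 (SE 0.28, limma adjusted p = 1.15e-04) and that of FAK-WT over KMF cells 3.56 (SE 0.44, limma adjusted p = 8.53e-04). With a KMF mean of 0.470 FPKM, Igfbp3 passed the filter in both comparisons only through the other line, where it was high. It was called in both without the filter too (limma adjusted p = 9.20e-04 and 0.00235). Between FAK-WT and FAK KO cells the value of 0.93 (SE 0.40, limma adjusted p = 0.0929) did not pass, and it was 0.41 without FAK-WT replicate 3. Against FAK-R454 cells it was 0.32 (SE 0.48, limma adjusted p = 0.701) and turned to -0.20 without that sample.

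KMF over FAK KO cells had the most calls among comparisons outside the choice of genes: of 7 genes Igfbp7 was called higher and Igfbp2 and Igfbp3 lower, where 3.97% of all 11893 genes tested were called higher and 4.04% lower. Igfbp2 and Igfbp3 had KMF means of 0.784 and 0.470 FPKM and passed the filter only through FAK KO cells, where they were high. At any fold 3 were higher (Igfbp6, Igfbp7 and Igf2r) and 3 lower (Igf1r, Igfbp2 and Igfbp3), where 23.1% and 28.7% of all genes were. In FAK-WT over KMF cells Igfbp2 and Igfbp3 were called higher and none of the 7 lower, where 3.82% of all 11847 genes were called higher and 2.11% lower. Here Igfbp2 and Igfbp3 passed the filter only through FAK-WT cells, where they were high. At any fold Igfbp4 joined them and Igfbp7 was lower, where 18.2% and 23.5% of all genes were higher and lower. Igfbp4 was 0.99 higher at an adjusted p of 0.0110 from limma, next to the fold threshold, and it was called with median-of-ratios scaling (1.01), in limma-voom on fragments (1.04) and without FAK-WT replicate 1 (1.18), among other alternatives. Igfbp6, Igf1r and Igf2r had log2 values of 0.07, 0.01 and -0.04 there (limma adjusted p = 0.410, 0.935 and 0.761).

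Igf1r was lower in every line with FAK than in FAK KO cells, by less than the fold threshold. The log2 fold change was -0.42 in FAK-WT (SE 0.09, limma adjusted p = 0.00670), -0.43 in KMF (SE 0.11, limma adjusted p = 0.0133) and -0.33 in FAK-R454 cells (SE 0.10, limma adjusted p = 0.0491). The last passed by a narrow margin and in 7 of 15 alternatives. It was lost with no filter, median-of-ratios scaling, no trend, the joint fit of all lines or the replicate block, at adjusted p between 0.0637 and 0.112 from limma. Without FAK KO replicate 3 the adjusted p was 0.155 from limma. With any 1 sample left out the value was between -0.42 and -0.27. The fits without a FAK-R454 sample leave 1 in that line and are read by size alone. The KMF value had an adjusted p of 0.0528 without KMF replicate 1 and 0.0512 without FAK KO replicate 3. Igf2r was 0.23 higher in KMF than in FAK KO cells (SE 0.08, limma adjusted p = 0.0349), and 0.03 after centring chromosomes (limma adjusted p = 0.819), as the median of chromosome 17 genes was 0.21. This difference passed in 9 of 16 alternatives. With 1 sample left out it was between 0.19 and 0.31, at adjusted p between 0.0146 and 0.121 from limma. In FAK-WT and FAK-R454 over FAK KO cells Igf2r was 0.19 and 0.14 (limma adjusted p = 0.0560 and 0.164).

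Igf1, Igf2 and, outside β-catenin ΔGSK cells, Igfbp5 did not pass the filter, and their values come from a fit without it. Igfbp5 was by means 11.3 times higher in FAK-WT cells than without FAK, a log2 fold change of 2.23 given without a test, as the FAK KO samples were also those by which Igfbp5 was chosen. It was 2.04 on the log2 scale above FAK-R454 cells (SE 0.25, limma adjusted p = 0.0238), where 1.06% of all genes were higher. The sizes depend on the constant added: with 1 FPKM the values were 0.62 and 0.60, with 0.01 FPKM 3.35 and 2.88, and in limma-voom on fragments 3.50 and 3.00. The FAK KO level in these ratios rests on 5 to 16 fragments per library. All 3 FAK-WT samples were above all samples of FAK KO, FAK-R454 and KMF cells, at a mean of 0.630 FPKM, and the difference from KMF cells was 1.32 on the log2 scale (SE 0.27, limma adjusted p = 0.0136), where 11.6% of all genes were higher. Over FAK KO cells the log2 value was 0.91 in KMF and 0.19 in FAK-R454, whose samples overlapped those of FAK KO. The difference from FAK-R454 cells kept a value between 1.91 and 2.16 with 1 sample left out. Its adjusted p from limma was 0.0686 without FAK-WT replicate 1 and 0.114 without FAK-WT replicate 2. Leaving out a FAK-R454 sample leaves 1 in that line, so only the size is read there. Axin2 in the same lines was 2.05 ± 0.0355 FPKM in FAK-WT (SD, n = 3), 0.773 ± 0.0176 FPKM in FAK-R454 (SD, n = 2) and 5.88 ± 0.301 FPKM in KMF cells (SD, n = 3).

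Igf1 was lower, not higher, in FAK-WT and in KMF than in FAK KO cells. Its log2 fold change was -0.99 in FAK-WT over FAK KO cells (SE 0.24, limma adjusted p = 0.0304) and -1.59 in KMF over FAK KO cells (SE 0.23, limma adjusted p = 0.00227). In FAK-R454 over FAK KO cells it was -0.32 (SE 0.28, limma adjusted p = 0.554). Of all genes in these fits 11.7% were lower in FAK-WT and 17.3% lower in KMF than in FAK KO cells. With 1 FPKM as the constant the FAK-WT value was -0.26 and the KMF value -0.37, and in limma-voom on fragments they were -1.46 and -2.82. Between FAK-WT and KMF cells Igf1, like Igfbp5, was higher in FAK-WT, by 0.61 (SE 0.15, limma adjusted p = 0.0263), which passed in 7 of 14 alternatives. Leaving out any sample other than FAK KO replicate 2 raised the adjusted p of the first above 0.05, to between 0.0729 and 0.0896, with values between -1.03 and -0.81. The log2 difference between FAK-WT and FAK-R454 cells was -0.67 (SE 0.20, limma adjusted p = 0.165), although their samples did not overlap.

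Another 51 genes, in 7 lists, were mostly below the fold threshold in the comparisons without β-catenin ΔGSK cells. The lists held 20 genes of PI3K, AKT, FOXO and mTOR and 10 of insulin receptors and adaptors. They also held 5 genes of binding protein proteases and their inhibitors and 3 of the ternary IGF complex and minor binding proteins. The rest were 3 genes of IGF2 mRNA-binding proteins, 6 imprinted neighbours of Igf2 and Igf2r, and 4 tensins. The shares below therefore do not describe IGF signalling alone. Between FAK-WT and FAK KO cells 33 passed the filter and none was called, and at an adjusted p under 0.05 from limma 12.1% were higher and 24.2% lower, beside 15.6% and 25.2% of all genes. Between FAK-R454 and FAK KO cells 2 of 33 were higher and 1 lower, which is 6.06% and 3.03% beside 9.78% and 9.89% of all genes, and none was called. Between FAK-WT and FAK-R454 cells 1 of 33 was lower, 3.03% beside 4.44%. Their median log2 fold change was -0.01, 0.03 and -0.03 in these comparisons, against medians of all genes of -0.08, -0.03 and -0.05. In KMF over FAK KO cells 13 of 34 were higher and 5 lower, 38.2% and 14.7% beside 23.1% and 28.7% of all genes, with Stc2 the only one called. In FAK-WT over KMF cells 2 were higher and 11 lower, 5.88% and 32.4% beside 18.2% and 23.5%, with Stc2 again the only call.

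Stc2, whose product inhibits the protease that cleaves IGFBP4, was 1.62 ± 0.203 FPKM in KMF, 0.210 ± 0.0701 FPKM after FAK loss and 0.165 ± 0.0519 FPKM after FAK-WT was added (SD, n = 3 each). Stc2 was 2.49 higher on the log2 scale in KMF than in FAK KO cells (SE 0.23, limma adjusted p = 5.39e-05), and it passed the filter only through KMF cells, where it was high. Pappa, which encodes that protease, was 0.0667 ± 0.0215 FPKM in KMF and between 0.654 and 1.25 FPKM as the mean of the other lines. The insulin receptor substrate genes Irs1 and Irs2 were 0.81 and 0.68 higher in KMF than in FAK KO cells (limma adjusted p = 9.33e-04 and 0.0223). Insr, the insulin receptor gene, was -0.36 in FAK-WT over FAK KO cells (limma adjusted p = 0.00615).

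In β-catenin ΔGSK over FAK KO cells 2 of 34 genes of these lists past the filter had a log2 change of at least 1 in size. Both were lower, which is 5.88% beside 7.01% of all genes, and none was higher beside 5.17%. Tns1, the gene of a tensin that links integrins to actin, ran from 3.56 to 4.11 FPKM, against 58.0 to 65.2 FPKM in the FAK KO samples, at a log2 difference of -3.98. Tns1 lies 1035 kb from Igfbp5 on chromosome 1. Pik3r3, a regulatory subunit gene of PI3K, had a log2 fold change of -1.41. Irs1 and Irs2 had log2 values of 0.79 and 0.64.

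The genes whose log2(FPKM + 0.1) pattern over the 14 samples was most like that of each variable member were taken from 12255 genes, as a description in which samples of 1 line share that line. For Igfbp5 these were Nkd1, an inhibitor of Wnt signalling (Pearson r = 0.991), Tppp3 and Gpr116, all highest in β-catenin ΔGSK cells. Nkd1 was 9.89 ± 0.698 FPKM there and 0.0142 ± 0.0128 FPKM in FAK KO cells (SD, n = 3 each). For Igfbp2 they were Rab3b (r = 0.989), Tppp and the cyclin gene Ccnd2, which was 266 ± 29.3 FPKM in β-catenin ΔGSK, 114 ± 2.90 FPKM in FAK KO and 63.1 ± 1.48 FPKM in KMF cells (SD, n = 3 each). For Igfbp4 they were Map6 (r = 0.989), the Wnt ligand gene Wnt7b and Gas7, for Igfbp3 Rhov (r = 0.968), Garnl3 and Tspyl5, and for Igfbp7 Ap2a2 (r = 0.991), Mbtps1 and Cdc42ep3.

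Cell type markers also differed between lines. The sum over 5 mesenchymal markers, most of it Vim, was 1029.7 to 1074.7 FPKM in FAK KO and 1387.5 to 1444.1 in KMF samples. It was 1266.3 to 1585.1 FPKM in FAK-WT, 1143.2 to 1145.3 in FAK-R454 and 920.3 to 1031.2 in β-catenin ΔGSK samples. Fn1 was 1.73 higher in FAK-WT and 1.55 higher in FAK-R454 than in FAK KO cells on the log2 scale (limma adjusted p = 6.77e-04 and 1.35e-04). Cdh2 and Zeb1 went the other way in FAK-WT over FAK KO cells, at -0.84 and -0.40 (limma adjusted p = 8.43e-05 and 0.0080). Both were -0.09 in FAK-R454 over FAK KO cells (limma adjusted p = 0.379 and 0.523). Vim was 0.29 in FAK-WT and -0.01 in FAK-R454 over FAK KO cells (limma adjusted p = 0.0276 and 0.910). The sum over 10 ovarian surface epithelium markers was 1569.6 to 1809.4 FPKM in FAK-WT and between 1069.1 and 1399.6 FPKM in samples of the other lines. Its members did not move together: Upk3b had means of 4.03 FPKM in FAK KO, 7.46 in FAK-WT and 31.6 in FAK-R454 cells. With added β-catenin Wt1, Krt19 and Upk3b had means of 227, 644 and 8.74 FPKM, beside 97.8, 441 and 4.03 in FAK KO cells. Krt8, Msln and Krt18 had means of 181, 47.8 and 210 FPKM with it, beside 317, 70.2 and 218. Summed over 5 fibroblast markers, the level ran from 41.8 to 49.8 in KMF, 90.0 to 127 in FAK KO, 123 to 145 in FAK-WT, 122 to 132 in FAK-R454 and 30.8 to 45.1 FPKM in β-catenin ΔGSK samples, most of it Dcn. Between KMF and FAK KO cells Pdgfra and Col1a1 ran against this sum: Pdgfra was 9.06 ± 0.981 and 3.03 ± 0.327 FPKM, and Col1a1 was 2.46 ± 0.142 and 1.33 ± 0.344 FPKM (SD, n = 3 each). In the other lines both moved with it from their FAK KO level, Pdgfra to means of 10.3 FPKM in FAK-WT, 8.87 FPKM in FAK-R454 and 0.815 FPKM with added β-catenin, and Col1a1 to 9.12, 10.1 and 0.194 FPKM. Of these 5 markers 3 exceeded a mean of 1 FPKM in every line but β-catenin ΔGSK, where 1 did. The sum over 4 endothelial markers was 29.6 to 30.0 FPKM in KMF, 17.1 to 19.2 FPKM in FAK KO, FAK-WT and FAK-R454, and 6.55 to 7.42 FPKM in β-catenin ΔGSK samples, nearly all of it Tek. The sum over 11 leukocyte markers was 1.16 to 4.42 FPKM in every line but FAK-WT, where it was 6.77 to 12.5 FPKM. The part of these differences in the levels of Igfbp3, Igfbp4, Igfbp6 and Igfbp7 was not tested.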

How the data were processed

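RNA of 14 samples from tumorsphere culture was sequenced as paired ends. The authors mapped the reads and deposited 1 table of FPKM for 35275 genes. The study's methods name TopHat2, and the submitters' processing notes name STAR 2.5, CASAVA 1.8, DESeq2 and mm10, so the aligner behind the deposited FPKM is uncertain; fragments of similar copies may be assigned differently by either. FPKM times gene length gave whole fragments (within 0.01) for 100% of values, which showed each library's depth, 25390558 to 35289859 fragments. Of 34490 identifiers found in GENCODE M21 (GRCm38), 24912 had the same coordinates, 8 of the 10 members among them, and coordinates are printed as deposited. Intervals and floors from counts cover counting error only.

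Each pair of lines was compared with limma 3.58.1 in R 4.3.3 (eBayes with trend) on log2(FPKM + 0.1), which understates changes of low genes, over genes with a mean above 1 FPKM in at least 1 line, with Benjamini-Hochberg adjustment over all genes tested. Igf1, Igf2 and Igfbp5 were fitted without that filter where they failed it. Samples of a line are labelled as replicates, and the study's methods call the RNA of KMF, but not of the KT13 lines, independent, so p-values measure only the spread between these samples, which may be technical. The members in β-catenin ΔGSK over FAK KO, and Igfbp5 in any line over FAK KO, were described without a test; that fit gave counts over all genes alone. FAK-R454 has 2 samples here. The members, lists and tests were chosen with earlier results of these data known. Named genes were all members, up to 3 called genes of each list and direction, expressed genes within 200 kb, and the 3 genes most like each member that spanned at least 2 on the log2 scale and exceeded 1 FPKM; Krt8, Krt18, Irs1, Irs2, Insr and Pappa were picked from the neighbours and lists after their values were seen. Tns2 and Adgre1 were matched by identifier to older symbols. Alternatives were other pseudocounts, filters and fold thresholds, no trend, median-of-ratios scaling, a joint fit of the lines, chromosome centring, a replicate block, limma-voom on whole fragments and leaving out each sample. Scripts were tested on simulated data. Figures were drawn with matplotlib 3.10.9.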

Additional observations from a re-analysis of the deposited data

How the results depend on the processing

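Over 47 tested log2 fold changes and 701 alternative values, 631 kept their direction and their side of an adjusted p of 0.05, 44 lost it, 6 gained it and 20 changed sign, none of these with an adjusted p under 0.05 from limma. The alternatives include fits with 1 FAK-R454 sample left, in which the other line alone gives the spread. The number of members called in FAK-WT over FAK KO cells was 2, and it was 1 with a pseudocount of 1 or a filter of 5 FPKM, 4 with a log2 threshold of 0.5 and 5 with none. Leaving out 1 sample gave 1 to 3. In FAK-R454 over FAK KO cells 1 became 4 with the threshold of 0.5 and 5 with none. Against FAK-R454, FAK-WT went from 0 to 1 with none, and in KMF over FAK KO cells 3 became 6, and 2 with a filter of 5 FPKM, which leaves out Igfbp3. In β-catenin ΔGSK over FAK KO cells, counted by fold alone with no test, the 4 members were 3 with a pseudocount of 1, a filter of 5 FPKM, median-of-ratios scaling or without FAK KO replicate 2, each time without Igfbp4, 5 without FAK KO replicate 3 and 6 with a threshold of 0.5. A count without a threshold would need a test and is not given there. In FAK-WT over KMF cells 2 became 1 with a filter of 5 FPKM and 4 with a threshold of 0.5 or none, and 3, with Igfbp4, with a pseudocount of 0.01, median-of-ratios scaling, limma-voom or without FAK-WT replicate 1 or 2 or KMF replicate 1 or 3.

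Centring chromosomes turned Igfbp6 in FAK-WT over KMF cells to -0.19, and Igf2r to 0.061 there and to -0.052 against FAK-R454. Leaving out 1 sample moved Igf2 between -0.29 and 0.0097 in FAK-WT over FAK KO, -0.43 and 0.032 in FAK-R454 over FAK KO, -0.14 and 0.33 in FAK-WT over FAK-R454, -0.11 and 0.043 in KMF over FAK KO, and -0.25 and 0.058 in FAK-WT over KMF cells. It moved Igf2r between -0.010 and 0.11 for FAK-WT against FAK-R454 cells and between -0.11 and 0.023 in FAK-WT over KMF cells, Igf1r between -0.048 and 0.12 there, and Igfbp3 between -0.20 and 0.58 for FAK-WT against FAK-R454 cells. The cause was not tested.

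Sample numbers are shared between lines. Deviations of same-numbered samples had correlations of 0.445, 0.28 and 0.076 in β-catenin ΔGSK and FAK KO cells and between -0.245 and 0.145 in the other comparisons, and in no comparison did all pairs exceed 0.1, so the numbers were not taken as pairs. The replicate block raised the genes at an adjusted p under 0.05 from limma from 6928 to 8153 in β-catenin ΔGSK over FAK KO cells. In comparisons with FAK-R454 it leaves out replicate 3 of the other line, and Igfbp3 in FAK-WT over FAK-R454 cells was -0.20 and Igfbp7 -0.19 (adjusted p = 0.00536), the same values as without FAK-WT replicate 3. With the replicate block, Igf1 in FAK-WT over FAK KO cells kept -0.99 (adjusted p = 0.0806). Median-of-ratios scaling shifted the median of all genes by 0.11 in β-catenin ΔGSK over FAK KO cells and by less elsewhere. Igf1, Igf2 and Igfbp5 below the filter are limited by depth, and 2 samples of FAK-R454 limit what its comparisons can detect.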
